A study of Mus musculus with 6 samples.

Results

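The genes described here are the noncoding genes and pseudogenes on the numbered autosomes in a table of genes that differed between Senp8+/- and wild-type mouse macrophages. They were chosen by their annotated biotype (any other than protein-coding) and chromosome, and they number 92 of the 714 listed genes, beside 616 protein-coding genes and 6 noncoding genes on other chromosomes. RNA was sequenced from 6 libraries of bone marrow-derived macrophages of strain C57BL/6, grown from marrow for 6 days with GM-CSF at 10 ng/ml, a factor that drives the growth of myeloid cells. There were 3 wild-type libraries and 3 libraries labelled SENP8+/- by genotype and KO in their titles. Senp8 encodes the enzyme that cuts NEDD8, a small modifier related to ubiquitin, off other proteins. Every library, wild type included, came from cells that had received streptavidin beads carrying CD47, a surface protein that signals to macrophages through SIRPα, 24 h before RNA was taken. Values are normalised counts (reads per gene divided by a size factor for the library), and means are given ± SD (n = 3 libraries per genotype).

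The authors listed a gene only where its unadjusted p was under 0.05 and its difference at least 2-fold in this same contrast, so every gene below had to differ. Senp8 was not analysed here, and the genotype labels could not be checked on it. "Rose", "fell" and "called" refer to an adjusted p under 0.05 in the authors' deposited table. The reads over all listed genes ranged from 205957 to 491156 per library, of which these 92 genes took between 0.774% and 1.08%. Total depth is unknown here. The labels do not say whether the libraries of a genotype came from different animals or cultures, so their spread, against which p-values are measured, may be a technical one. In RNA from a mixed culture, fewer cells of a type and less RNA per cell cannot be told apart. Of the 10 macrophage markers looked up, C1qa and C1qc were listed, both lower in Senp8+/- and not called. Markers of other cells also differed. For T and NK cells, 6 of 14 markers were listed, all lower, 5 of them called, with a summed level of 19.6 to 21.4 in the Senp8+/- libraries and 137 to 198 in wild type, and 2 of these were at 0 in every Senp8+/- library. All 8 stromal markers were listed and lower, 2 of them called, with sums of 397 to 715 against 706 to 1788. Of 8 neutrophil markers 3 were listed and called lower, with sums of 358 to 561 against 1187 to 1566. Their part in the results below was not tested.

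A noncoding gene is transcribed without encoding a known protein. Long intergenic RNAs (lincRNAs) lie between protein-coding genes, antisense RNAs run along the opposite strand of one, and some of both kinds act on transcription nearby or on RNA and proteins elsewhere in the cell. A processed pseudogene is a copy of a messenger RNA written back into the genome without introns, whereas an unprocessed pseudogene is a duplicated gene that has lost its open reading frame. Because such copies resemble their parent genes, a short read from one can often be placed on the other as well.

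The 2 pseudogenes Gm17222 and Gm17121 were nearly without reads in Senp8+/-, and their sequences are shown because they limit what their counts can mean. Gm17222 (GRCm38 chr14:3210975-3211821, minus strand) and Gm17121 (chr14:7565259-7566105, plus strand) had no differing base (0) over all 847 bases. Both were 96.8% identical to the transcript of Esd, which encodes esterase D and was not among the listed genes. The alignment of Gm17222 with Esd held 26 mismatched bases and 1 gapped base. Below are bases 531 to 630 of each pseudogene (chr14:3211192-3211291 on the minus strand and chr14:7565789-7565888 on the plus strand) and the matching stretch of Esd, 5′ to 3′. Capitals mark the 6 bases that differ from Esd.
Gm17222: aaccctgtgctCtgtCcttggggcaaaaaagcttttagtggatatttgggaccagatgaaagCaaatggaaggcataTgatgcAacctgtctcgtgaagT
Gm17121: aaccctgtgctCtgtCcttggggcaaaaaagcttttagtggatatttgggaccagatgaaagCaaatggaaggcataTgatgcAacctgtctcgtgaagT
Esd: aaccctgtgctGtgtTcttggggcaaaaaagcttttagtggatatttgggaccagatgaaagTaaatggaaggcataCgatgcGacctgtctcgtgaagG

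Gm5424 (chr10:62071123-62072362, plus strand) is the processed pseudogene of highest mean level. It was 99.5% identical to the transcript of Ass1, which encodes argininosuccinate synthase, an enzyme of arginine synthesis, with 6 mismatched bases in 1240. Bases 330 to 429 (chr10:62071452-62071551, plus strand) are set beside Ass1, with the 2 differing bases in capitals, to show how little a read has to tell them apart.
Gm5424: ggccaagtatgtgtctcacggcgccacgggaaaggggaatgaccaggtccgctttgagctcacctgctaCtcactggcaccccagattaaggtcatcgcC
Ass1: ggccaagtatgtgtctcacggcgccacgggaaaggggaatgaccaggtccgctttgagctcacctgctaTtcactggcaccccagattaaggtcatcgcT

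Across the 92 genes, 59 were lower and 33 higher in Senp8+/-, that is 64.1% lower against 82.6% of the listed protein-coding genes. Of the 92, 22 were called in the authors' deposited table (23.9%), 18 lower and 4 higher, where the background over all listed genes was 41.3% called, 33.9% lower and 7.42% higher. The called share therefore lay below the background. The genotypes did not overlap in 85 of the 92 (92.4%), against 89.4% of all listed genes. The median log2 fold change in the authors' deposited table was -1.49 for these genes and -1.48 for all listed genes. limma was fitted on the listed genes only, which were selected on this same contrast, so its calls are not independent of that selection. On log2(normalised count + 1) it called 21 of the 92, 16 lower and 5 higher, against a background of 24.6% of all listed genes. Of these 21, 17 were also called in the authors' deposited table. The limma count fell whichever library was left out. It dropped to 5 when Senp8+/- replicate 2 was left out, to 2 when wild-type replicate 1 was, and to 10 or 11 for each of the others. Each of these fits has fewer samples, and the effect of that was not separated from the effect of the library itself. With libraries rescaled to equal medians over the listed genes, the limma count was 30, of which 5 were lower and 25 higher.

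The noncoding genes and pseudogenes were also less abundant, with a median level of 13.4 over the 6 libraries against 33.1 for protein-coding genes, and 33 of them averaged under 10. Set beside protein-coding genes of like level, they still held fewer genes in the lower direction at low and middle levels. At means of 10 to 50, 61.9% of 42 were lower against 81.5% of 222 protein-coding genes, and 9 were called against 67. At means under 10, 57.6% of 33 were lower against 85.3% of 136, and 2 were called against 10. At means of 50 or more, 82.4% of 17 were lower against 82.2% of 258, and 11 were called against 193. No test was made of these differences. In all, 5 of the 92 had no read in any Senp8+/- library and 8 had none in any wild-type library, and 3 of these 13 were called.

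**Figure D1:**
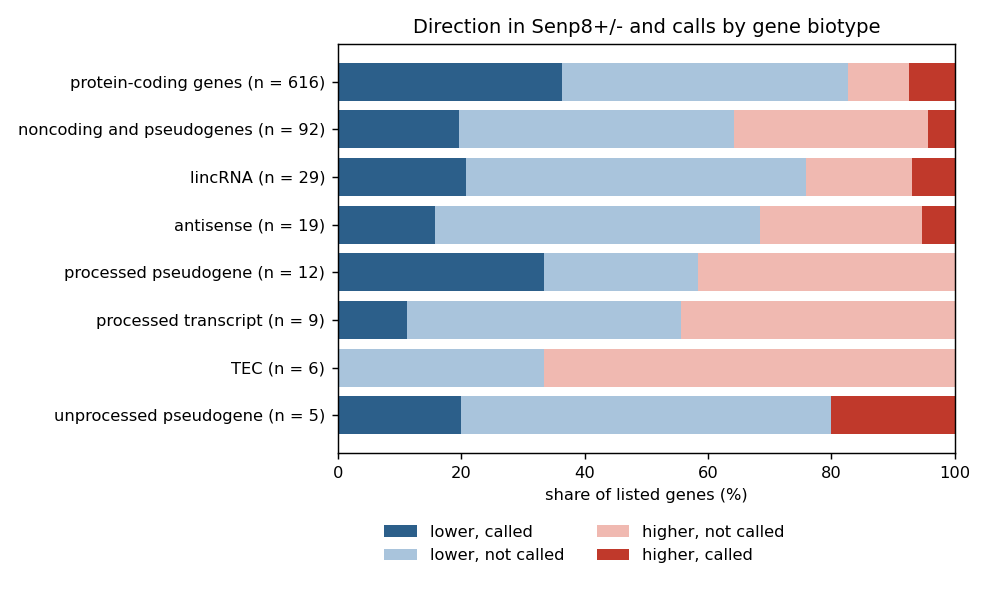
Share of listed genes that were lower or higher in Senp8+/- and called or not called (adjusted p under 0.05 in the authors' deposited table), for the protein-coding genes, for all 92 noncoding genes and pseudogenes, and for the 6 biotypes with 5 or more of them. Dark blue marks called lower genes and dark red called higher genes; the combined lower share is 64.1% for the 92 genes and 82.6% for protein-coding genes.

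Among biotypes with more than 5 genes, the share of lower genes ran from 33.3% (TEC) to 75.9% (lincRNAs). Of the 29 lincRNAs 22 were lower, with 6 called lower and 2 called higher. Of the 19 antisense genes 13 were lower, with 3 called lower and 1 called higher. Processed pseudogenes were lower in 7 of 12, and the 4 called were all lower. Processed transcripts were lower in 5 of 9, with 1 called. The called share was 27.6% for lincRNAs, 21.1% for antisense genes, 33.3% for processed pseudogenes and 11.1% for processed transcripts, against 41.3% of all listed genes. Of the 6 genes marked TEC, a label for transcripts still to be tested experimentally, 4 were higher and 0 were called in the authors' deposited table, where each of the 6 had an unadjusted p under 0.05, and limma called 0 of them too. The remaining 17 genes were spread over 8 biotypes with 5 or fewer genes each.

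Among the lincRNAs, AW112010 was the most abundant of all 92 genes, also per kilobase. It is a macrophage and lymphocyte transcript induced in inflammation, long catalogued as noncoding and later found to be translated. AW112010 (chr19:11047617-11050566) stood at 200, 177 and 207 in the Senp8+/- libraries and at 1555, 1667 and 633 in the wild-type libraries. Wild-type replicate 3 was well below the other two, yet above all Senp8+/- libraries. The mean fell 6.61-fold, from 1285 ± 568 to 194 ± 15.7 (adjusted p = 4.47e-10 in the authors' deposited table). Since T and NK cell markers fell alongside it, and this gene is known in those cells as well, their levels given above stand beside this value, and their part was not tested.

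4930480K23Rik was at 2.06, 4.65 and 10.7 in Senp8+/- and at 48.5, 44.3 and 45.4 in wild type. It was 7.94-fold lower on the means, and 13.7-fold lower without Senp8+/- replicate 3. Gm34084 was at 32.9, 33.5 and 12.9 against 119, 118 and 82.1. Gm39556 lay 10.1-fold lower in Senp8+/-, with 3.09, 0.930 and 3.21 against 14.9, 39.1 and 19.2. Gm32089 fell from 23.8, 28.5 and 16.6 to 5.15, 6.51 and 4.29 and 4930512J16Rik from 101 ± 32.2 to 36.7 ± 15.5. The genotypes did not overlap for any of these 5 lincRNAs, as in 89.4% of all listed genes. Their adjusted p in the authors' deposited table ran from 3.13e-05 to 0.0369. The 2 lincRNAs that rose were of low level, as were Gm39556 and Gm32089 among those that fell. The fold of Gm39556 rests on few reads in Senp8+/-. Gm34425 was at 13.4, 28.8 and 23.6 in Senp8+/- and 2.97, 5.28 and 4.37 in wild type (adjusted p = 0.0236 in the authors' deposited table). Gm30246 was at 28.8, 17.7 and 25.7 against 3.96, 3.17 and 8.74 (adjusted p = 0.0351 there, from the authors' deposited table).

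**Figure D2:**
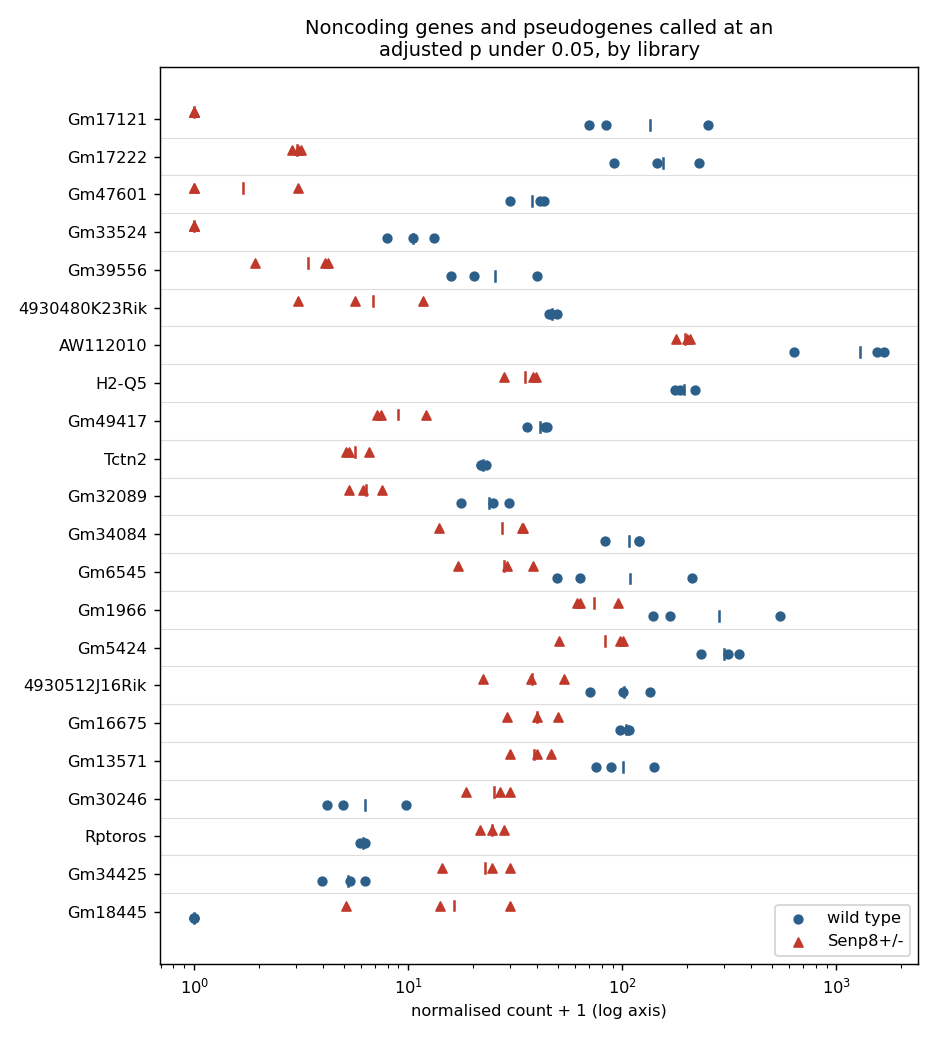
Normalised counts plus 1 (log axis) of the 22 called noncoding genes and pseudogenes in each library, ordered by log2 fold change in the authors' deposited table; circles are wild-type and triangles Senp8+/- libraries, and short vertical lines mark the 3-library means. The genotypes do not overlap in any of the 22 rows, which their selection favours, beside 89.4% of all listed genes. Of the 22, 18 lie lower in Senp8+/-, beside 242 of the 295 called among all listed genes.

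A list of 36 immune and macrophage long noncoding RNAs held 3 listed genes, AW112010, Gm14005 and Mir155hg. Gm14005, known as Morrbid and as a regulator of myeloid cell lifespan beside Bcl2l11, stood at 58.7, 87.4 and 90.0 in Senp8+/- and at 40.6, 48.6 and 22.7 in wild type, and was not called (adjusted p = 0.170 in the authors' deposited table). Mir155hg, the transcript from which the inflammatory microRNA miR-155 is cut, was at 7.21, 8.37 and 8.57 against 0.990, 2.11 and 1.75. Its genotypes did not overlap, but its level was low and it was not called (adjusted p = 0.323 in the authors' deposited table). The 2 mature microRNAs of this host gene are shown from RefSeq (GRCm38.p6) with their seeds, bases 2 to 8, in capitals, because the host transcript is counted here and the poly(A)-selected libraries do not measure the microRNAs themselves.
mmu-miR-155-5p: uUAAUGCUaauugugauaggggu
mmu-miR-155-3p: cUCCUACCuguuagcauuaac

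Of 13 microRNA processing genes looked up, 0 were among the listed genes used here, and of 24 genes of RNA decay and surveillance also 0. Rows of antigen receptor segments were also 0. In all, 714 genes were listed, while 14694 entered the authors' correction. A count of 0 in sets this small therefore says little about them.

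Of the antisense genes, Gm4610 had the highest mean and was not called (49.3 ± 5.46 in Senp8+/- and 121 ± 61.9 in wild type). Gm13571 lies inside Ly75, the gene of the endocytic receptor DEC-205, on the opposite strand, with 249 exonic bases in common. It fell from 87.2, 139 and 74.3 in the wild-type libraries to 45.3, 39.1 and 28.9 in Senp8+/- (adjusted p = 0.0168 in the authors' deposited table). Ly75 itself was at 494, 385 and 1019 in wild type and 445, 289 and 207 in Senp8+/-, with overlapping genotypes and no call. Rptoros, inside and antisense to Rptor, the gene of the mTORC1 subunit Raptor, rose from 4.95, 5.28 and 5.24 to 20.6, 27.0 and 23.6 (adjusted p = 0.0134 in the authors' deposited table). Rptor was not listed, and 84 exonic bases are shared. Strand is not stated for these libraries, and without strand, reads from a gene and its antisense partner cannot be told apart.

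That limit touches many of the 92 genes. In the GENCODE M21 annotation 35 of them overlapped the body of a protein-coding gene, 30 on the opposite strand and 5 on the same strand, and 20 shared exonic bases with it. For 8 the overlapped gene was itself listed. Besides Gm13571 these included Gm11131, antisense to the MHC class I gene H2-Q4 with 496 shared exonic bases, Gm35853, antisense to the keratin gene Krt80 with 263, and Gm28417, opposite the phosphatase gene Ptpn18 with 492. Gm11131 was at 11.3, 6.51 and 12.9 in Senp8+/- against 23.8, 31.7 and 38.4 in wild type, below the level at which the authors' deposited table calls a difference (adjusted p = 0.0673). H2-Q4, counted over the whole gene, fell from 2216 ± 138 to 482 ± 75.6. E230032D23Rik, which overlaps Tnfrsf22 without shared exonic bases, was not called (74.1 ± 9.18 in Senp8+/-, 35.3 ± 18.8 in wild type), while Tnfrsf22, a decoy receptor for TRAIL, rose from 82.3 ± 23.7 to 183 ± 7.72. E230032D23Rik does share 107 exonic bases with Tnfrsf26 and 164 with Tnfrsf23, both on the opposite strand and not listed.

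Gm16675, a bidirectional promoter RNA, starts 217 bases from the start of Irf2 and runs away from it. Irf2 encodes a transcription factor of the interferon response and was not listed. Gm16675 (chr8:46668808-46739515, minus strand) fell from 107, 96.1 and 105 to 39.1, 27.9 and 49.3, a 2.65-fold difference (adjusted p = 0.00213 in the authors' deposited table). Gm16675 was not past the threshold of limma (limma adjusted p = 0.0765). Its promoter window (RefSeq, GRCm38.p6, chr8:46739466-46739765, minus strand, 250 bases before to 50 after the start) is shown because it is the only 1 of the 35 promoters matched to these genes that holds the GAS core TTCNNNGAA, the letters read by STAT proteins, in capitals. The window also contains the start of Irf2, at base 46739732, so it does not belong to Gm16675 alone.
Gm16675: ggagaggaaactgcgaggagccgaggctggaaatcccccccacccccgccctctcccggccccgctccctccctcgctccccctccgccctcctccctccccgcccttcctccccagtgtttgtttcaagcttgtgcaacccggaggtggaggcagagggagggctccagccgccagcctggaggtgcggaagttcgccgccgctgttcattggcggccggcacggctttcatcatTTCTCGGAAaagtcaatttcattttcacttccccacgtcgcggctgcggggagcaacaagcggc
On both strands, the GAS core was in 2.86% of the 35 promoters and in 8.30% of all 32851 promoters of the table. The AP-1 motif TGANTCA was in 8.57% against 7.81%, and the TATA motif TATAAA in 2.86% against 13.6%. The PU.1 core GAGGAA, of the factor that defines myeloid cells, was in 48.6% (17 promoters) against 28.3%. These motifs were searched separately, and matches are descriptions of letters only. Several of the matched promoters start far from the start of the listed gene. Those of Gm1966 and Gm34084, with a PU.1 core, lie 40610 and 24221 bases from it. Those of Gm35853 and Gm13710, without one, lie 35705 and 24449 bases from it. The other bidirectional promoter RNA, 2810029C07Rik, starts 121 bases from Mark3 and had 2.06, 2.79 and 5.36 in Senp8+/- and 0 in every wild-type library, and was not called.

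Pseudogenes made up 24 of the 92 genes, and 7 were called, 6 lower and 1 higher, that is 29.2% called against 41.3% of all listed genes. Gm17222 was at 2.06, 1.86 and 2.14 in the Senp8+/- libraries, which is 2 reads in each, and at 145, 227 and 90.9 in wild type. On summed reads, 6 against 465, the ratio was 74.5 with an exact 95% interval of 34.0 to 204 that covers counting error only (adjusted p = 1.39e-14 in the authors' deposited table). Its identical copy Gm17121 had 0 reads in every Senp8+/- library and 83.2, 249 and 69.0 in wild type, so, set against 3 reads in each library, it was at least 44.1-fold lower, and at least 25.1-fold lower without wild-type replicate 2. Since 9 annotated genes match each of them at 95% identity or more over at least 80% of the length, and no source used here says how reads with several placements were handled, the split between them is uncertain.

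Gm5424 fell from 309, 349 and 233 to 49.4, 96.8 and 99.6, and its near-identical parent Ass1 from 888, 562 and 633 to 185, 128 and 148. Both were called in the authors' deposited table, with log2 fold changes of -1.86 and -2.17. Reads of this pair can be exchanged, as the sequences above show. H2-Q5 is a polymorphic pseudogene, a copy that is intact in some strains and broken in others, among the Q genes of the MHC, whose nonclassical class I products include the antigen Qa-2. H2-Q5 (chr17:35394126-35397800) stood at 37.1, 27.0 and 38.6 in Senp8+/- and at 184, 175 and 218 in wild type, a 5.62-fold fall with little spread in either genotype (adjusted p = 1.22e-13 in the authors' deposited table). By best alignment score H2-Q5 was 92.9% identical to H2-Q7, which fell 6.80-fold, from 1133 ± 342 to 167 ± 43.0. In addition, 1 annotated gene matched H2-Q5 at 95% identity or more over at least 80% of the length. Reads of related Q genes may be placed on H2-Q5, and their part in its fall was not tested. H2-Q6 fell 8.15-fold and H2-Q4 4.59-fold. Of the listed protein-coding genes whose symbols start with H2-, 14 of 14 were lower and 12 were called. Over all listed protein-coding genes 82.6% were lower and 43.8% were called. Gm9574, an unprocessed pseudogene 82.4% identical to H2-T22, was at 4.59 ± 3.05 against 13.9 ± 1.65 and was not called.

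The size of the difference in 2 called pseudogenes depended on wild-type replicate 3. Gm1966, 92.9% identical to Gvin1, an interferon-inducible very large GTPase, was at 60.7, 94.9 and 62.1 in Senp8+/- and 166, 138 and 543 in wild type. The 3.89-fold difference became 2.10-fold without that library. Gm6545, 73.2% identical to the protease gene Fam111a, was at 27.8, 37.2 and 16.1 against 62.4, 48.6 and 211, and its 3.98-fold difference became 2.05-fold without it. The lincRNA Gm42047, which was not called, showed the same library high at 370 beside 112 and 68.6, and moved from 3.67-fold to 1.81-fold lower. Over all 92 genes, wild-type replicate 3 was more than 1.5 times its next highest fellow library of the genotype in 13, against 5 to 11 for the other libraries.

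Gm18445 was the 1 pseudogene that rose. It had no read in any wild-type library and stood at 4.12, 13.02 and 28.9 in Senp8+/-, at least 5.26-fold higher against the floor, or at least 2.94-fold without Senp8+/- replicate 3 (adjusted p = 0.00222 in the authors' deposited table). Over 78.6% of its length it was 91.3% identical to Ifi207, a gene of the PYHIN family of nucleic acid sensors, which was not listed. Its nearest listed protein-coding gene was Ifi208, of that same family, which also had no read in wild type and rose to 40.5 ± 22.2. Reads of these related genes may be placed on either. Mx2, a polymorphic pseudogene in laboratory strains and a relative of the antiviral gene Mx1, was at 82.3, 83.7 and 58.9 in Senp8+/- against 23.8, 33.8 and 48.9 in wild type and was not called.

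The other pseudogenes were of low level and not called, and their parents were mostly not listed. A coding match was found for 23 of the 24, over at least 80% of the length in 18 and at 95% identity or more over that length in 11, and only 2 of these coding genes, Ass1 and H2-Q7, were listed. The 5 processed pseudogenes that were higher in Senp8+/- were all uncalled copies of genes that were not listed. Gm16378, of the translation initiation factor gene Eif1, was at 11.3, 20.5 and 21.4 against 7.92, 6.33 and 4.37, and Gm13135, of the chromatin remodeller gene Smarca5, at 35.1 ± 4.67 against 15.2 ± 5.55. Gm12696 (closest to Hnrnpc) and Gm14122 (closest to Ppp1cc) were among them too.

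Among the processed transcripts 1 was called. Tctn2, a gene of the ciliary transition zone that the table lists as a processed transcript, fell from 20.8, 22.2 and 20.97 to 4.12, 5.58 and 4.29 (adjusted p = 0.0231 in the authors' deposited table). Snora57, the 1 small nucleolar RNA, which guides pseudouridylation of ribosomal RNA, was at 9.26, 16.7 and 13.9 against 4.95, 4.22 and 6.12 and was not called. It is 148 bases long and lies inside Lbhd1, on the opposite strand. Whether its reads in these poly(A)-selected libraries come from the small RNA or from transcripts around it was not tested. Gm45879, the 1 unitary pseudogene, was at 2.30 ± 1.35 against 12.5 ± 4.82 and was not called.

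Chromosome 14 held 8 of the 92 genes, and 7 of those 8 were called against 15 of the 84 elsewhere. Of the listed protein-coding genes 21 of 30 were called on chromosome 14 (70%), 33 of 48 on chromosome 17 (68.8%) and 43.8% over all chromosomes. No test of these shares was made. The called noncoding genes and pseudogenes there were Gm17222, Gm17121, Gm47601, 4930480K23Rik, Gm33524 and Gm49417, all lower, and Gm30246, higher. Gm4632 was not called. A group of 3 of them lay between 69732784 and 70255287 with Tnfrsf10b and Sorbs3, just beyond Loxl2. 4930480K23Rik ends 359 bases before Tnfrsf10b, a TRAIL death receptor, which fell 9.55-fold from 89.5 ± 21.1 to 9.38 ± 4.63. Gm33524, which overlaps Pebp4 on the opposite strand, had 0 reads in every Senp8+/- library and 6.93, 9.50 and 12.2 in wild type, at least 3.15-fold lower (adjusted p = 0.00848 in the authors' deposited table). Gm49417 overlaps Sorbs3 on the opposite strand with 84 shared exonic bases, and also Ppp3cc, which was not listed, with 91. Gm49417 fell from 42.6, 34.8 and 43.7 to 6.18, 11.2 and 6.43 (adjusted p = 0.000464 there, from the authors' deposited table). Sorbs3, the gene of the adhesion protein vinexin, fell 8.58-fold and Loxl2, a lysyl oxidase of collagen, 16.1-fold.

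Gm47601 went against the gene it lies in. It is a sense intronic RNA inside Lrmda, a gene of melanocyte differentiation, on the same strand with 0 shared exonic bases. Gm47601 had 2.06, 0 and 0 in Senp8+/- and 28.7, 42.2 and 40.2 in wild type. On summed reads, 2 against 115, the ratio was 55.2 with an exact 95% interval of 14.9 to 462 that covers counting error only (adjusted p = 5.08e-05 in the authors' deposited table). Lrmda rose 13.8-fold, from 11.9, 15.8 and 16.6 in wild type to 174, 185 and 251 in Senp8+/-. The genotypes did not overlap in either gene, and the directions were opposite.

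**Figure D3:**
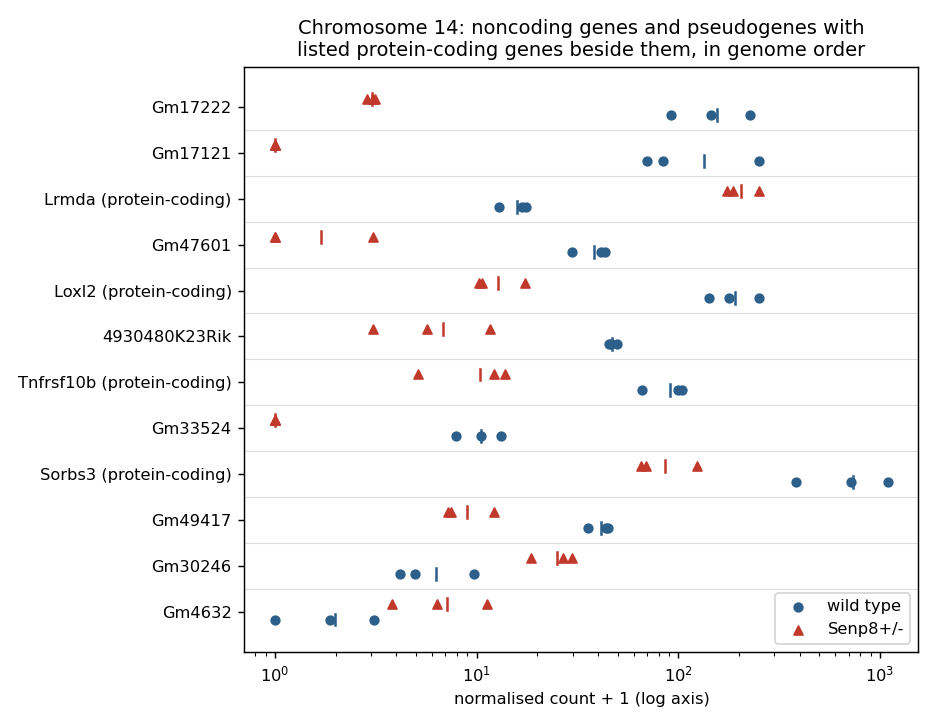
Normalised counts plus 1 (log axis) in each library for the 8 noncoding genes and pseudogenes of chromosome 14 and 4 listed protein-coding genes beside them, in genome order without distances; circles are wild-type and triangles Senp8+/- libraries, and short vertical lines mark means. Gm47601 is lower in Senp8+/- while Lrmda, in which it lies, is higher, and Tnfrsf10b and Sorbs3 are lower together with the 3 noncoding genes near them.

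By gene start, the nearest listed protein-coding gene lay between 2596 and 18808737 bases away, with a median of 968455. In 56 of the 92 pairs (60.9%) both genes had the same direction, against 461 of 595 autosomal protein-coding genes and their nearest listed neighbour (77.5%). Lower genes matched in 48 of 59 and higher genes in 8 of 33, in a table where most genes were lower. At starts within 100000 bases, 13 of 14 pairs matched (92.9%), against 151 of 163 protein-coding pairs (92.6%). Farther away, 43 of 78 matched, against 310 of 432. These pairs share their libraries and the selection of the table, and no test was made.

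The close pairs joined several named genes. AW112010 lies 19854 bases by start from Ms4a8a, of the Ms4a family of membrane proteins, which fell 2.65-fold from 1071 ± 388 to 404 ± 29.7. Gm39556 lies 25614 bases from Ly6e, a lipid-anchored surface protein, which fell 2.98-fold from 16420 ± 2089 to 5512 ± 125. AI504432 lies 3335 bases from the potassium channel gene Kcna3, and both were higher without a call, AI504432 at 103, 52.1 and 62.1 against 16.8, 17.9 and 47.2. Gm13431, beside the cyclooxygenase gene Ptgs1, and Gm7535, beside the formyl peptide receptor gene Fpr2, were lower and not called, whereas both neighbours fell, Ptgs1 2.18-fold and Fpr2 8.16-fold. The 1 pair that did not match was Gm6264, at 9.26, 3.72 and 0 in Senp8+/- and 0 in every wild-type library, with A530032D15Rik, which was lower and not called. Gm6264 lies inside C130026I21Rik, which was listed too, and it is 86.8% identical to Sp140 over 58.2% of its length.

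**Figure D4:**
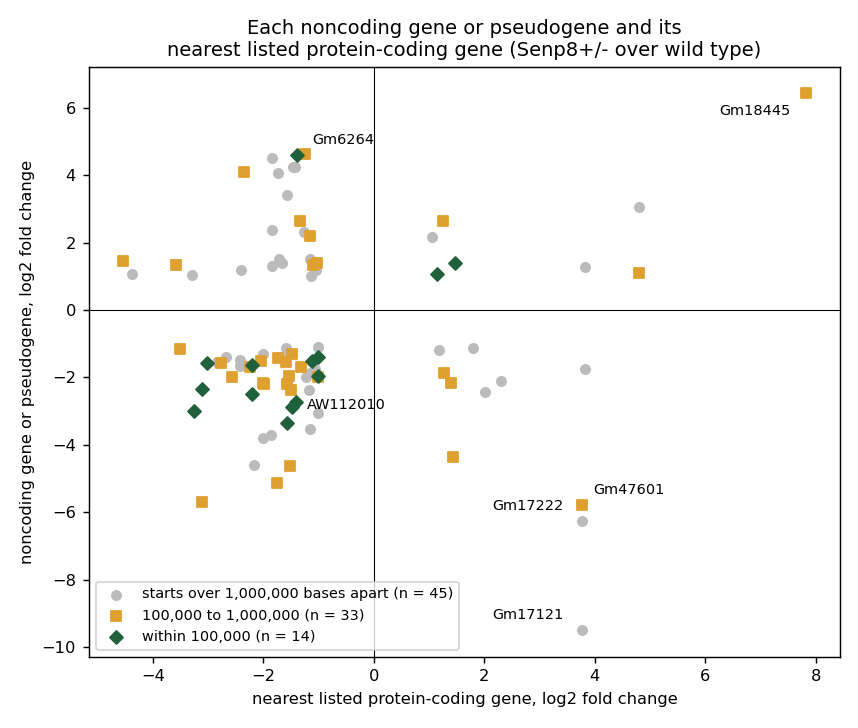
Log2 fold change of each of the 92 noncoding genes and pseudogenes (vertical axis) against that of its nearest listed protein-coding gene (horizontal axis), both Senp8+/- over wild type from the authors' deposited table; colour and shape give the distance between starts, and values of genes with no read in a genotype depend on the fitting. Of the 14 pairs within 100000 bases, 13 have both values on the same side of 0, and Gm6264 is the other one.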

How the data were processed

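The data are 6 RNA-seq libraries. The submitters' processing notes name HISAT2 2.0.5 and, for counting, featureCounts 1.5.0-p3. Genome build, annotation, strandedness and the tool of the authors' test: not given in the sources used here. The deposited values are a signal, reads per gene that the authors scaled by a size factor in each library, and all values (100%) were whole multiples of a step within 1e-06 of a read, from which reads were recovered. The authors also deposited log2 fold changes, p-values and adjusted p-values, and a gene length in bases (used for levels per kilobase). The top adjusted p over its p gave 14694 genes in their correction. Rows with an adjusted p written as 1 (11 of the 92) were counted as not called.

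The 92 genes were selected by biotype and chromosome. The members and lists were chosen with earlier results of these data known. All 92 identifiers were in GENCODE M21 (91 at the same position), so positions are named as GRCm38. limma 3.58.1 (R 4.3.3, with a trend) used log2(value + 1) of all 714 listed genes with genotype as the only term, with Benjamini-Hochberg adjustment over 14694 genes. The fit was tested on simulated data in which most genes were unchanged and none were selected. That test cannot show how the fit behaves on genes selected on this contrast. edgeR 4.0.16 and DESeq2 1.42.0 on recovered reads were alternatives. Pseudogene transcripts were aligned to all GENCODE M21 transcripts with blastn 2.17.0 (word size 16). A fold against libraries at 0 took 3 reads as its floor, equal to 3.03 (Senp8+/-) or 2.92 (wild type) after scaling.

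Named genes are those called in the authors' deposited table, up to 3 of highest mean per biotype, those on or within 10000 bases of a listed protein-coding gene, and list members. The rule gave 48 genes, and uncalled ones are given mostly by counts. Others (the pairs within 100000 bases and the uncalled pseudogenes) were named after their values were seen. Some results that the rule would name are not reported here.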

Additional observations from a re-analysis of the deposited data

How the results depend on the processing

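With limma, 21 of the 92 genes were past the threshold. The count was 19 and 21 with pseudocounts of 0.5 and 4, 25 without the trend, 17 with edgeR and 16 with DESeq2. It was 12 among the 59 genes with a mean of at least 10, and 90 with adjustment over the listed genes only, an adjustment that ignores how the genes were selected. Leaving out 1 library gave 2 to 11, with the lowest count without wild-type replicate 1 and 5 without Senp8+/- replicate 2; fewer samples enter each of these fits. Rescaling to equal medians over listed genes moved the median log2 fold change of all listed genes by 0.96 and turned the split of calls from 76.2% lower to 16.7% lower, with no gene of the 92 (0) changing sign. The cause of these shifts was not tested, and a scaling on selected genes cannot stand for the whole library. With a replicate block the count was 22 (2 gained, 1 lost). Deviations of same-numbered libraries correlated at 0.01, 0.04 and -0.24, so the numbers were not taken as pairs.

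The share lower, 64.1%, was 64.1% under rescaling and without any 1 library, and 67.8% at means of at least 10; the selection on fold change fixes most of these directions. The share matching the nearest protein-coding gene, 60.9%, was 60.9% by the gap between genes, 62.7% at means of at least 10, 59.8% under rescaling, 92.9% within 100000 bases, and 60.9% without any 1 library. For the 22 called genes the 306 refits kept the sign in all, which the selection on fold change in these same libraries largely fixes. The main limma fit called 17 of the 22. Compared with that fit, 218 refits stayed on the same side of the threshold, 85 lost the call and 3 gained it. The 218 include refits of genes that limma called neither in the main fit nor in the refit. Of the 33 genes with means under 10, 2 were called; whether more reads would change this was not tested.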

Other observations

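Some genes past the threshold of limma were not called in the authors' deposited table. These 4 are Gm20627 (0 in every Senp8+/- library against 8.91, 5.28 and 5.24), Gm13274 (0, 0.930 and 0 against 12.9, 5.28 and 4.37), Gm35853 (1.03, 1.86 and 1.07 against 10.9, 11.6 and 6.99) and Gm39473 (7.21, 14.9 and 8.57 against 0, 1.06 and 1.75). Gm20627, Gm13274 and Gm39473 were named after their values were seen. Their limma adjusted p-values and that of Gm35853 ran from 0.0111 to 0.0365. All 4 have means under 10, and their genotypes do not overlap. Other genes were called in the authors' deposited table but were not past the threshold of limma. They were Gm16675 (limma adjusted p = 0.0765), Gm13571 (0.126), Gm1966 (0.141), 4930512J16Rik (0.141) and Gm6545 (0.206).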
